A study of Mus musculus with 56 samples.

Results

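The comparison described here set N2a cells given small interfering RNA (siRNA) against Fmr1 together with the control plasmid pcDNA (siFmr1 pcDNA, 3 libraries) against N2a cells given a non-targeting siRNA with the same plasmid (siNT pcDNA, 3 libraries). These 6 libraries were taken by their labels from the 56 samples of the series, and all genes of their table that passed a filter on low values were tested, 16074 of 23064. N2a is an established mouse neuroblastoma line. Both groups were grown in the same serum-containing medium and transfected with the same lipid reagent, so the siNT cells also carried an siRNA, the plasmid and the lipid reagent. The labels give no time after transfection and do not say whether the 3 libraries of a group came from separate cultures, so p-values here measure the spread between these libraries, which may be technical. The siRNA lowered Fmr1 mRNA without removing it, unlike a deletion of the gene.

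Fmr1 encodes FMRP, an RNA-binding protein that associates with many neuronal mRNAs and with ribosomes and is best known for restraining translation of its targets. Loss of FMRP causes fragile X syndrome. Fxr1 and Fxr2 encode its close relatives. MBNL1 and MBNL2 (muscleblind) are splicing regulators, and MBNL1 was manipulated in other co-transfected groups of the series. In bulk RNA a lower value can mean fewer cells carrying an mRNA or less of that mRNA per cell, and these cannot be told apart here.

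Fmr1 mRNA was lower in every siFmr1 library. The gene lies on chromosome X, 68678541 to 68717963, plus strand (GRCm38, GENCODE M21). Its deposited normalized count, the authors' depth-scaled estimate of reads per gene, was 2819, 3604 and 2856 in the siNT libraries and 587, 583 and 612 in the siFmr1 libraries. The groups did not overlap, and the log2 fold change, computed like all below on log2(normalized count + 1), was -2.37 ± 0.11 (SE, 3 libraries a group, limma adjusted p = 6.17e-05). The siNT libraries were less alike than the siFmr1 libraries: the median standard deviation per gene on the log2 scale was 0.2067 over the 3 siNT libraries and 0.0791 over the 3 siFmr1 libraries (13353 genes with a mean of at least 10). Library totals of normalized counts were 31870000 to 32740000. The siNT 2 library stood apart by transcript length: each gene's deviation from its mean over the 6 libraries had a Spearman correlation with length of 0.527 across genes, against -0.259 to -0.0575 in the other 5 libraries.

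Of 16074 genes with a mean of at least 1, 3654 (22.7%) were called different at a Benjamini-Hochberg adjusted limma p under 0.05. In siFmr1 cells 1971 (12.3%) were higher and 1683 (10.5%) were lower. The groups did not overlap for 3716 genes that were above (23.1%) and 3288 that were below (20.5%) in all siFmr1 libraries. Leaving out 1 siFmr1 library lowered the count of calls to 1407 (without library 1), 1455 (without library 2) or 1724 (without library 3), and leaving out siNT 2 raised it to 5423. A set of 676 genes (4.21%) was called higher and 569 (3.54%) lower in the full fit and in each of the 6 fits without 1 library. The genes named for their size of change come from that set. The limma fit uses 1 spread per gene for both groups, which these libraries do not share, so its adjusted p-values are approximate and the share of false calls may be above 5%.

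Fold changes followed base composition. Over 12838 genes with a mean of at least 10, the Spearman correlation across genes of the log2 fold change with the GC content of the longest transcript was 0.342, and with its length -0.204. Genes are not independent replicates, and all points share the same 6 libraries. Of 5 equal groups of genes by GC content, in the lowest 5.14% were called higher and 24.5% lower. In the highest 26.3% were called higher and 3.78% lower. After each library's smooth trend with GC content and length was subtracted, an alternative added after this pattern was seen, 5077 of 15427 genes were called, 2580 (16.7%) higher and 2497 (16.2%) lower. With the trend fitted by least squares, the form tried first, the split was 2146 higher and 3030 lower. Corrected counts are given beside the main gene groups.

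**Figure D1:**
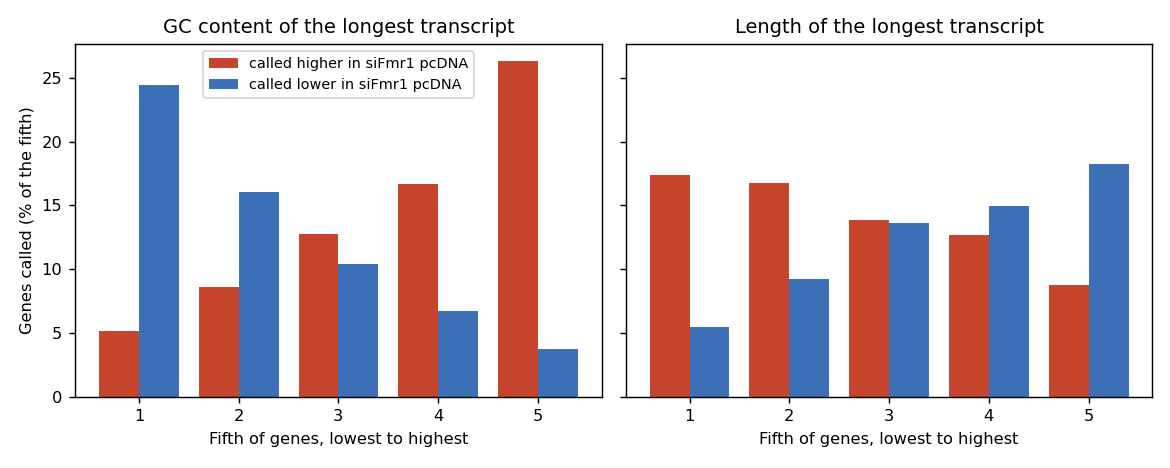
Share of genes called higher (red) or lower (blue) in siFmr1 pcDNA than in siNT pcDNA, in percent of each of 5 equal groups of 12838 genes ordered by GC content (left) or length (right) of the longest transcript. Calls turn from mostly lower to mostly higher as GC content rises: 24.5% lower in the lowest group and 26.3% higher in the highest.

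Among the FMRP family and its partners (18 tested), no gene was called higher, and Fmr1 and Nufip2 were called lower (11.1%, near the 10.5% over all genes). Without siNT 2 the list had 4 higher and 3 lower. After the GC and length correction it had 2 higher and 1 lower. Fxr1 was at 11859.8, 12278 and 10119 in the siNT libraries and 11370.1, 11109 and 12144 in the siFmr1 libraries, with a log2 fold change of 0.02 ± 0.11 (SE; adjusted p = 0.916), and Fxr2 had 0.18 ± 0.10 (adjusted p = 0.233). Neither relative passed the test. Nufip2, an FMRP-interacting RNA-binding protein, was at 7457, 7733 and 7327 in the siNT libraries and 5452, 5242 and 6076 in the siFmr1 libraries. Its groups did not overlap, and it fell by 0.43 ± 0.09 (limma adjusted p = 0.0119), but it was called in only 4 of the 6 fits without 1 library and not after the GC and length correction (adjusted p = 0.0651). Mbnl1 was at 4410.4, 5017 and 3759 in the siNT libraries and 4563, 4445 and 4694 in the siFmr1 libraries, with overlapping groups and a log2 fold change of 0.06 ± 0.11 (limma adjusted p = 0.715). After correction for GC content and length it passed the test, with a log2 fold change of 0.31 (adjusted p = 0.00624). Mbnl2 fell by 0.27 ± 0.08 (limma adjusted p = 0.0407), a call kept in 2 of the 6 fits without 1 library and lost after the correction (adjusted p = 0.0656). Celf1, an RNA-binding protein that often opposes MBNL at shared exons, had a log2 fold change of 0.01 ± 0.11 (adjusted p = 0.965).

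The 12 largest falls and 12 largest rises are named among genes called in every fit without 1 library, with no overlap between groups and a mean of at least 100 in the higher group, leaving out predicted symbols. Fmr1 was among the falls. C3ar1, a receptor for a complement fragment, was at 95.3, 108 and 108 in the siNT libraries and 15.9, 25.2 and 13.9 in the siFmr1 libraries, and its log2 fold change was -2.48 ± 0.27 (SE, 3 libraries a group, limma adjusted p = 0.000956). Filip1l, named for its likeness to a filamin-interacting protein, was at 1123, 743 and 1048 in the siNT libraries and 193, 253 and 267 in the siFmr1 libraries, a log2 fold change of -2.02 ± 0.19 (SE, 3 libraries a group, limma adjusted p = 0.000566). Vcam1, a cell adhesion molecule of the immunoglobulin family, went from 111, 107 and 153 to 20.4, 34 and 36.6, a log2 fold change of -2.01 ± 0.28 (adjusted p = 0.00208). In all of these every siFmr1 library was below every siNT library. Ankrd1, a muscle ankyrin repeat protein and known YAP target, fell by 1.88 ± 0.22, and Nppb, which encodes a natriuretic peptide, fell by 1.78 ± 0.22 (limma adjusted p = 0.00124 and 0.00138). Serpinb9b, Rab15, BC031361, Papolb, Olfr1259 and Trim12c completed the 12, with log2 fold changes from -2.27 to -1.83.

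Among the 12 largest rises, Kcnh3, a voltage-gated potassium channel of the brain, was at 16.8, 28.9 and 13.6 in the siNT libraries and 236, 210.4 and 242 in the siFmr1 libraries, a log2 fold change of 3.54 ± 0.28 (SE, 3 libraries a group, limma adjusted p = 0.00033). Lgi3, a secreted neuronal protein, was at 66.1, 32.9 and 50.2 in the siNT libraries and 319, 284 and 355 in the siFmr1 libraries, a log2 fold change of 2.71 ± 0.25 (SE, 3 libraries a group, limma adjusted p = 0.00057). Svop, a protein related to synaptic vesicle transporters, was at 42.6, 70.8 and 61.7 in the siNT libraries and 259.7, 277 and 328 in the siFmr1 libraries, a log2 fold change of 2.31 ± 0.22 (SE, 3 libraries a group, limma adjusted p = 0.000614). In each of these the highest siNT library was far below the lowest siFmr1 library. Srcin1, a synaptic adaptor that restrains Src kinase, rose by 2.29 ± 0.44, and Espn, an actin-bundling protein, rose by 2.32 ± 0.26 (limma adjusted p = 0.00777 and 0.000976). Cpvl, Spag16, Pth1r, Adap1, Fgd3, Fam212b and Sctr rose by up to 3.31 on the log2 scale.

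**Figure D2:**
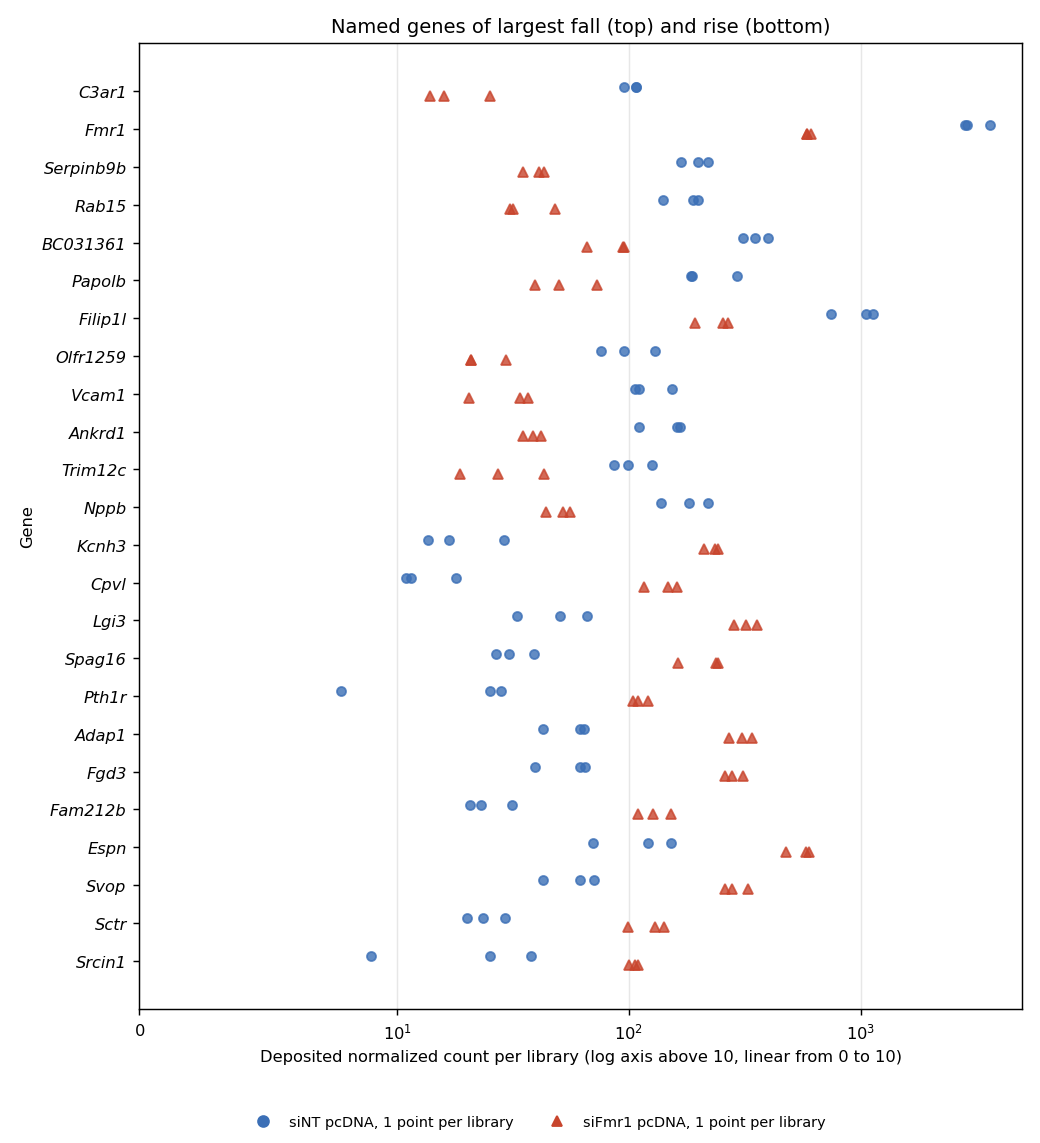
Deposited normalized count of each library (x axis, logarithmic above 10) for the 12 genes of largest fall (upper rows) and the 12 of largest rise (lower rows); circles are siNT pcDNA libraries and triangles siFmr1 pcDNA libraries. In every row the 2 groups are apart, as the rule for naming these genes required.

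More lysosomal genes fell than rose. Lysosomes are the acidic compartments in which hydrolases break down macromolecules and autophagic cargo, and many of their genes share an E-box element read by TFEB, TFE3 and MITF. Of 47 autophagy and lysosome genes tested, 26 fell (55.3%, beside 10.5% over all genes) and 2 rose (4.26%, beside 12.3%). Their median log2 fold change was -0.44, beside 0.03 over all genes tested. Lamp1, a major protein of the lysosomal membrane, was at 55464, 46148 and 49253 in the siNT libraries and 23652, 24178 and 23664 in the siFmr1 libraries, a log2 fold change of -1.07 ± 0.12 (SE, 3 libraries a group, limma adjusted p = 0.000903). Ulk2, a kinase that starts autophagy, was at 1540.4, 1748 and 1391 in the siNT libraries and 795, 862 and 827 in the siFmr1 libraries, a log2 fold change of -0.91 ± 0.11 (SE, 3 libraries a group, limma adjusted p = 0.00124). In these genes the 3 siFmr1 libraries lay close together and below every siNT library. Among the regulators, Mitf fell by 1.13 ± 0.15 (limma adjusted p = 0.00176), whereas Tfeb rose by 0.85 ± 0.13 (limma adjusted p = 0.00327). Wipi1, an autophagosome protein, was the other gene that rose, by 0.82 ± 0.09 (limma adjusted p = 0.000995). Of the 26, 14 were called in all 6 fits without 1 library, and each fit without 1 siFmr1 library called 14 lower members. Without siNT 2, 34 were lower. After GC and length correction 34 of 46 members were lower and 3 higher.

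The Lamp1 promoter is shown because Lamp1 was among the lysosomal genes of largest fall and its window held the E-box core CACGTG, in capitals, 4 times. The sequence is from RefSeq (GRCm38.p6, chr8:13158911-13159210, plus strand) and runs from 250 bases before to 50 after the gene start.
Lamp1 promoter: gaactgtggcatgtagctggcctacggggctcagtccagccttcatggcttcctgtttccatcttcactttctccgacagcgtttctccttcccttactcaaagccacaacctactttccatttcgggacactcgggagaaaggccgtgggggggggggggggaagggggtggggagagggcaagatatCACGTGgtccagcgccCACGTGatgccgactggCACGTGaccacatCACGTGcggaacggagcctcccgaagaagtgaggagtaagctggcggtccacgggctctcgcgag
The 3 windows of Mitf and the window of Ulk2 held none. Over the 36 list members with a promoter in the table, 11 (30.6%) held CACGTG, a palindrome that reads the same on both strands, against 11% of the 12021 tested genes with a promoter. Of the 20 members that fell, 6 (30%) held it, and of the 16 others 5 (31.2%). A match describes letters in this window and shows no binding.

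Among cholesterol synthesis genes more fell than rose as well. This pathway turns acetyl-CoA into sterols and is switched on by SREBP2 when sterols are scarce. Of 24 tested, 13 fell (54.2%, beside 10.5% over all genes) and 1 (Pmvk) rose (4.17%, beside 12.3%), with a median log2 fold change of -0.40. Idi1, which isomerizes the isoprenoid building block, was at 7060.2, 5782 and 5776 in the siNT libraries and 2858, 2858 and 3124 in the siFmr1 libraries, a log2 fold change of -1.07 ± 0.10 (SE, 3 libraries a group, limma adjusted p = 0.000691). Sc5d, a late sterol desaturase, was at 2213, 2391 and 2007 in the siNT libraries and 1149.9, 1111 and 1296 in the siFmr1 libraries, a log2 fold change of -0.89 ± 0.10 (SE, 3 libraries a group, limma adjusted p = 0.00116). Msmo1 and Nsdhl, which remove methyl groups from the sterol ring, fell by 0.75 ± 0.10 and 0.60 ± 0.10 (limma adjusted p = 0.00169 and 0.00501). None of these 4 genes had overlapping groups. Fits without siFmr1 library 1, 2 or 3 called 7, 8 and 9 members lower, and the corrected values called 17 lower and 1 higher. Of 20 fatty acid synthesis genes tested, 3 fell (15%) and 1 rose (5%), and fits without siFmr1 library 1, 2 or 3 each called 1 lower. Elovl6, a fatty acid elongase, fell by 0.80 ± 0.10 (limma adjusted p = 0.00132).

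Markers of sympathetic neuroblastoma, the lineage of N2a, included Dbh, Mycn and Hand2 in all 6 libraries. Of 16 tested 8 rose (50%, beside 12.3% over all genes) and none fell (median log2 fold change 0.58). Dbh, the enzyme that makes noradrenaline, was at 107, 101 and 132 in the siNT libraries and 479.7, 545 and 416 in the siFmr1 libraries, a log2 fold change of 2.07 ± 0.16 (SE, 3 libraries a group, limma adjusted p = 0.00033). Mycn, a proto-oncogene of neuroblastoma, was at 355, 384 and 458 in the siNT libraries and 986, 977 and 909.5 in the siFmr1 libraries, a log2 fold change of 1.27 ± 0.12 (SE, 3 libraries a group, limma adjusted p = 0.000623). Hand2, a transcription factor of sympathetic neurons, was at 7924, 6201 and 9281 in the siNT libraries and 14693, 14665 and 14708 in the siFmr1 libraries, a log2 fold change of 0.93 ± 0.14 (SE, 3 libraries a group, limma adjusted p = 0.00295). In these 3 genes every siFmr1 library was above every siNT library. Of this list 4 genes (Chga, Dbh, Hand2 and Mycn) were called in every fit without 1 library. Leaving out siFmr1 library 1, 2 or 3 gave 4, 4 and 5 higher, and 8 were higher and 1 lower after correction.

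Of 30 genes of secretory granules and synaptic vesicles, 11 rose (36.7%, beside 12.3% over all genes) and 1 fell (3.33%, beside 10.5%). The median log2 fold change was 0.30. Chga, a granin that packages catecholamines, was at 2569, 3331 and 4126 in the siNT libraries and 8501, 8368 and 7572 in the siFmr1 libraries, a log2 fold change of 1.31 ± 0.16 (SE, 3 libraries a group, limma adjusted p = 0.00128). Syn2, a synapsin that tethers synaptic vesicles, was at 2064, 2508 and 2555 in the siNT libraries and 4645, 4869 and 4848 in the siFmr1 libraries, a log2 fold change of 1.02 ± 0.10 (SE, 3 libraries a group, limma adjusted p = 0.000746). Chgb, another granin, and Rab3a, a GTPase of vesicle release, rose by 1.04 ± 0.19 and 1.03 ± 0.16 (limma adjusted p = 0.00695 and 0.00353). Fits without siFmr1 library 1, 2 or 3 called 7, 7 and 10 higher, and without siNT 2 the count was 13, with 3 lower. Corrected values called 15 higher and 4 lower. Of 32 neuronal cytoskeleton and neurite genes, 8 rose (25%) and none fell. Mapt (tau), a microtubule-binding protein, went from 2996, 3749 and 3550.1 to 6023, 6001 and 5839, a log2 fold change of 0.80 ± 0.10 (limma adjusted p = 0.00154), and was the only one of the 8 called in every fit without 1 library. Fits without siFmr1 library 1, 2 or 3 called 1, 1 and 4 of this list higher.

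**Figure D3:**
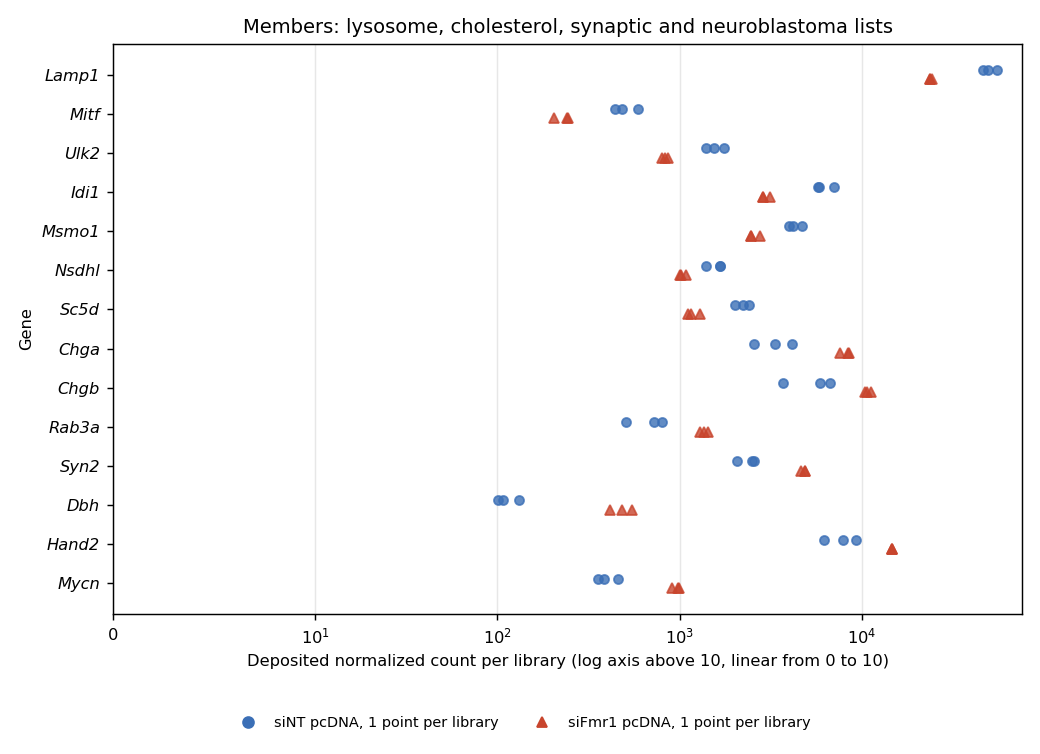
Deposited normalized count of each library (x axis, logarithmic above 10) for members of the lysosome, cholesterol, synaptic and neuroblastoma lists; circles are siNT pcDNA libraries and triangles siFmr1 pcDNA libraries. Lysosome and cholesterol genes (upper rows, Lamp1 to Sc5d) are lower in siFmr1 pcDNA and the others are higher, with no overlap between groups.

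Well-known FMRP target mRNAs were called in both directions. Of 45 tested, 12 rose (26.7%, beside 12.3% over all genes) and 3 fell (6.67%, beside 10.5%), and the median log2 fold change was 0.09. When siFmr1 library 1, 2 or 3 was left out, 5, 6 and 7 were higher and 0, 0 and 1 lower. Without siNT 2 the counts were 17 higher and 4 lower. Grin1, a subunit of the NMDA receptor, was at 157, 254 and 167 in the siNT libraries and 463, 473 and 370.2 in the siFmr1 libraries, a log2 fold change of 1.20 ± 0.20 (SE, 3 libraries a group, limma adjusted p = 0.00456). Nrxn2, a presynaptic adhesion molecule, was at 819, 1458 and 1175 in the siNT libraries and 2583, 2584 and 2028 in the siFmr1 libraries, a log2 fold change of 1.09 ± 0.20 (SE, 3 libraries a group, limma adjusted p = 0.00609). Agap2, a GTPase-activating protein, rose by 0.96 ± 0.22 (limma adjusted p = 0.017), called in 2 of 6 fits without 1 library. Among the siNT libraries these 3 genes were highest in siNT 2, yet every siFmr1 library was higher still. Corrected counts were 15 higher and 6 lower.

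Markers of other cell types were low or mixed. Summed over the fibroblast markers, of which 4 were tested, the normalized count was 195 to 238 in siNT and 277 to 316 in siFmr1 libraries, and none was called. Of 6 epithelial markers Krt8, a keratin, rose by 1.24 ± 0.24 (limma adjusted p = 0.00823), and their sum was 91.9 to 156 in siNT and 195 to 249 in siFmr1 libraries. Immune markers summed to 51.8 to 88.1 in siNT and 11.6 to 22.3 in siFmr1 libraries. Of 5 tested, Cd68 and Csf1r fell. Cd68, a lysosomal protein of macrophages, was at 60.3, 40.8 and 63.2 in the siNT libraries and 3.94, 4.97 and 11.8 in the siFmr1 libraries, a log2 fold change of -2.92 ± 0.42 (SE, 3 libraries a group, limma adjusted p = 0.00236). Glial markers (8 tested) summed to 863 to 1043 in siNT and 745 to 761 in siFmr1 libraries. Among them Aldh1l1, a folate enzyme, fell by 1.68 ± 0.13 (limma adjusted p = 0.000273). The part of these markers in the other groups of genes was not tested.

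Among short housekeeping mRNAs, 14 of 83 cytosolic ribosomal protein genes rose (16.9%, near the 12.3% over all genes) and none fell. Their median log2 fold change was 0.44, beside 0.03 over all genes. Of 78 nuclear-encoded oxidative phosphorylation genes 18 rose (23.1%) and none fell (median 0.46). Rps29, a small-subunit protein, was at 13813, 5198 and 15149.5 in the siNT libraries and 23188, 25205 and 26149.6 in the siFmr1 libraries, a log2 fold change of 1.27 ± 0.34 (SE, 3 libraries a group, limma adjusted p = 0.03). Ndufb3, a complex I subunit, was at 879.8, 400.1 and 795 in the siNT libraries and 1381, 1515 and 1533 in the siFmr1 libraries, a log2 fold change of 1.17 ± 0.26 (SE, 3 libraries a group, limma adjusted p = 0.013). In both genes siNT 2 was the lowest library. Summed over the ribosomal list, siNT libraries ranged from 1368410 to 2606470 and siFmr1 libraries from 2565080 to 2800500, so the sums overlapped. The oxidative phosphorylation sums did not, at 381674 to 612213 in siNT and 628482 to 652822 in siFmr1 libraries. Fits without siFmr1 library 1, 2 or 3 called 1, 2 and 1 ribosomal genes and 4, 2 and 3 oxidative phosphorylation genes, whereas leaving out siNT 1 gave 46 and 42. Leaving out siNT 2 gave 28 and 31, and leaving out siNT 3 gave 10 and 15. The median length of the longest transcript was 1094 bases in the ribosomal list and 1129 in the oxidative phosphorylation list, against 3183 over all genes tested. After correction for GC content and length 31 and 36 were higher, with medians of 0.30 and 0.33.

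**Figure D4:**
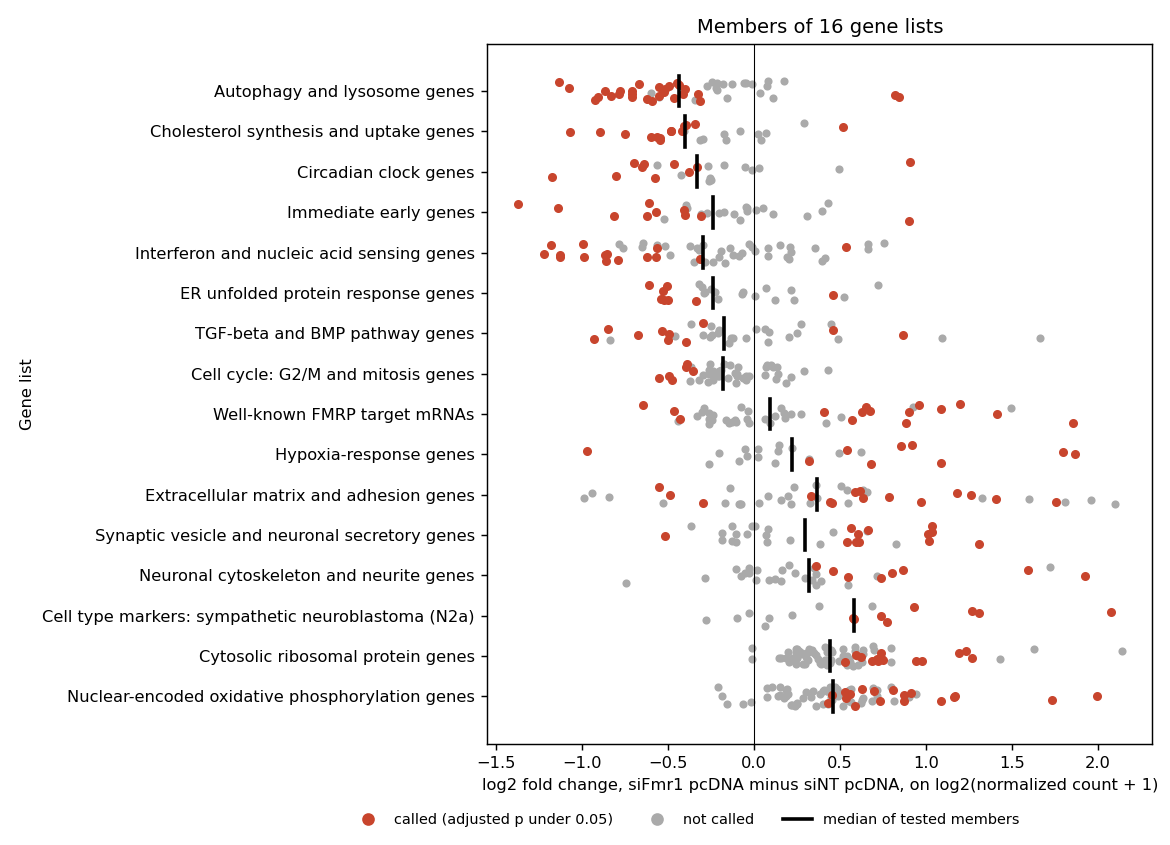
Log2 fold change (siFmr1 pcDNA minus siNT pcDNA) of every tested member of 16 gene lists; red points were called at an adjusted p under 0.05, grey points were not, and the black bar is the list's median. Lysosome (median -0.44) and cholesterol (-0.40) genes lie mostly left of 0, and ribosomal (0.44) and neuroblastoma (0.58) genes mostly right.

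Of 53 interferon and nucleic acid sensing genes, 14 fell (26.4%, beside 10.5% over all genes) and 1 rose (median log2 fold change -0.29). Rsad2 (viperin), an antiviral enzyme, was at 299, 372 and 279 in the siNT libraries and 122, 148 and 134 in the siFmr1 libraries, a log2 fold change of -1.22 ± 0.16 (SE, 3 libraries a group, limma adjusted p = 0.00177). Ifih1 (MDA5), a sensor of double-stranded RNA, was at 69.6, 86.7 and 77.4 in the siNT libraries and 30.6, 38.3 and 36.6 in the siFmr1 libraries, a log2 fold change of -1.13 ± 0.22 (SE, 3 libraries a group, limma adjusted p = 0.00798). Fits without siFmr1 library 1, 2 or 3 each called 8 lower, and without siNT 2 the count was 21. Corrected values called 23 lower and 3 higher.

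Activity-regulated and clock genes were lower more often than higher. Of 28 immediate early genes 9 fell (32.1%, beside 10.5% over all genes) and 1 rose. Egr3, a zinc-finger factor induced by activity, was at 687, 726 and 751 in the siNT libraries and 327, 219.7 and 299 in the siFmr1 libraries, a log2 fold change of -1.37 ± 0.16 (SE, 3 libraries a group, limma adjusted p = 0.00105), while Arc, an activity-regulated neuronal gene and FMRP-linked mRNA, rose by 0.90 ± 0.15 (limma adjusted p = 0.00499). Of 21 circadian clock genes 9 fell (42.9%) and 1 rose. Hlf, an output factor of the clock, was at 1003, 1034 and 1087 in the siNT libraries and 433, 475 and 479 in the siFmr1 libraries, a log2 fold change of -1.17 ± 0.10 (SE, 3 libraries a group, limma adjusted p = 0.000417). Arntl (BMAL1), the clock's core activator, was the gene that rose, from 571, 572 and 522 to 1068, 1041 and 1020.2 (log2 fold change 0.91 ± 0.10, limma adjusted p = 0.000822). Groups did not overlap in any of these genes. Fits without siFmr1 library 1, 2 or 3 called 4, 3 and 5 immediate early genes lower and 4, 4 and 5 clock genes lower. After correction 15 immediate early genes were lower and 1 higher, and 14 clock genes were lower and 1 higher. Among 24 YAP and SRF targets tested, 4 rose (16.7%, beside 12.3% over all genes) and 5 fell (20.8%, beside 10.5%). Fits without siFmr1 library 1, 2 or 3 called 0, 1 and 3 of them higher, and each called 4 lower. Cyr61, a secreted matrix protein, fell by 1.66 ± 0.12 (limma adjusted p = 0.000271).

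Stress pathways were mixed. Of 24 genes of the unfolded protein response 7 fell (29.2%, beside 10.5% over all genes) and 1 rose, and fits without siFmr1 library 1, 2 or 3 called 2, 3 and 3 lower. Herpud1, part of the endoplasmic reticulum degradation machinery, fell by 0.53 ± 0.10, and Dnajb9, a chaperone of the same compartment, by 0.61 ± 0.11 (limma adjusted p = 0.00693 and 0.00514). Of 48 ATF4 and amino acid genes 10 fell (20.8%) and 6 rose (12.5%), and the same fits called 4, 3 and 6 lower and 2, 2 and 3 higher. Slc7a11, the cystine transporter, was at 3971, 4877 and 3913 in the siNT libraries and 2156, 2241 and 2279 in the siFmr1 libraries, a log2 fold change of -0.93 ± 0.10 (SE, 3 libraries a group, limma adjusted p = 0.000992), and Cbs, an enzyme of cysteine synthesis, rose by 1.44 ± 0.12 (limma adjusted p = 0.00039). Of 40 NRF2 and glutathione genes 5 rose (12.5%) and 7 fell (17.5%), and the same fits called 1, 2 and 2 higher and 4, 4 and 5 lower. Of 23 hypoxia-response genes 8 rose (34.8%, beside 12.3% over all genes) and 1 fell, and the same fits each called 4 higher. Adm (adrenomedullin) was at 156, 86.7 and 192 in the siNT libraries and 484, 505 and 456 in the siFmr1 libraries, a log2 fold change of 1.80 ± 0.26 (SE, 3 libraries a group, limma adjusted p = 0.00243), and Kdm3a, a histone demethylase, fell by 0.97 ± 0.10 (limma adjusted p = 0.000746). Corrected values called 11 unfolded protein response genes lower and 3 higher, and 20 ATF4 genes lower and 6 higher. Heat shock genes (24 tested) had 2 members lower (8.33%, beside 10.5% over all genes) and none higher.

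Among developmental signalling pathways, the TGF-beta and BMP list had 8 of 34 members lower (23.5%, beside 10.5% over all genes) and 2 higher. With siFmr1 library 1, 2 or 3 left out, 3, 2 and 2 were lower. Smad1, a BMP effector, was at 2192, 2981 and 2329 in the siNT libraries and 1301, 1318 and 1285 in the siFmr1 libraries, a log2 fold change of -0.93 ± 0.12 (SE, 3 libraries a group, limma adjusted p = 0.00164). Smad3, a TGF-beta effector, fell by 0.85 ± 0.12, and the ligand gene Tgfb3 rose by 0.87 ± 0.11 (limma adjusted p = 0.00233 and 0.00156). In the Wnt list 8 of 39 rose (20.5%, beside 12.3% over all genes) and 3 fell. Those 3 fits each called 4 higher. Dkk1, a secreted Wnt inhibitor, was at 7714, 5803 and 7425 in the siNT libraries and 12372, 12072 and 12145 in the siFmr1 libraries, a log2 fold change of 0.82 ± 0.12 (SE, 3 libraries a group, limma adjusted p = 0.00257). Tcf7, a nuclear effector of the pathway, rose by 1.53 ± 0.19 (limma adjusted p = 0.00138). In the Notch list 8 of 31 rose (25.8%) and 5 fell (16.1%), and the same fits each called 6 higher. Lfng, a glycosyltransferase that tunes Notch receptors, rose by 1.55 ± 0.19 (limma adjusted p = 0.00138). Of 43 extracellular matrix and adhesion genes 12 rose (27.9%) and 3 fell, and the same fits called 3, 3 and 5 higher. Col18a1, a basement membrane collagen, was at 461, 572 and 623 in the siNT libraries and 1544, 1531 and 1308 in the siFmr1 libraries, a log2 fold change of 1.41 ± 0.13 (SE, 3 libraries a group, limma adjusted p = 0.000614). Mmp15, a membrane metalloproteinase, rose by 1.76 ± 0.22 (limma adjusted p = 0.00136).

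Of 45 G1/S and replication genes 6 fell (13.3%) and 2 rose, and of 48 G2/M genes 6 fell (12.5%) and none rose. Both lower shares were near the 10.5% over all genes tested. Cdc6, which loads the replicative helicase, was at 2564, 2236 and 2807 in the siNT libraries and 1676, 1674 and 1552 in the siFmr1 libraries, a log2 fold change of -0.63 ± 0.10 (SE, 3 libraries a group, limma adjusted p = 0.00435). Fits without siFmr1 library 1, 2 or 3 called 3, 4 and 4 G1/S genes lower and none higher, and no G2/M gene in either direction. Without siNT 2, 12 G1/S and 11 G2/M genes were lower, and 4 of each list were higher. Of 29 p53 targets 7 fell (24.1%) and 2 rose, but fits without siFmr1 library 1, 2 or 3 each called 1 lower. Of 64 replication-dependent histone genes 7 rose (10.9%, near the 12.3% over all genes) and 2 fell, and the median log2 fold change was -0.04. Fits without siFmr1 library 1, 2 or 3 called 5, 6 and 4 higher. After GC and length correction 7 were higher and 6 lower, with a median of -0.58. Hist1h2bc rose and was at 118, 84.9 and 118 in the siNT libraries and 482, 445 and 537 in the siFmr1 libraries (log2 fold change 2.19 ± 0.17, limma adjusted p = 0.00033). Of 22 glycolysis genes 2 rose (9.09%), and of 28 ERK feedback and target genes 1 rose (3.57%) and 3 fell (10.7%). Of 38 PI3K, mTOR and translation control genes 5 rose (13.2%) and 6 fell (15.8%). Over all genes 12.3% rose and 10.5% fell. Fits without siFmr1 library 1, 2 or 3 each called 1 ERK gene lower. They called 0, 0 and 1 genes of the PI3K list lower, and each called 2 higher. Histone genes have near-identical copies between which the authors' counting could split reads.

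Of 22 hnRNP genes 2 rose (9.09%) and 1 fell (4.55%), beside 12.3% and 10.5% over all genes tested. Hnrnpa1, an abundant splicing repressor, was at 15954, 15035 and 15459 in the siNT libraries and 9400.3, 9243 and 9135 in the siFmr1 libraries, a log2 fold change of -0.74 ± 0.09 (SE, 3 libraries a group, limma adjusted p = 0.00117). Hnrnph3 was at 727, 564 and 645 in the siNT libraries and 1044, 1129 and 988 in the siFmr1 libraries, a log2 fold change of 0.71 ± 0.12 (SE, 3 libraries a group, limma adjusted p = 0.00455). Among 24 neuronal and tissue splicing regulators 4 rose (16.7%) and 3 fell (12.5%); fits without siFmr1 library 1, 2 or 3 called 2, 2 and 3 higher and 2, 2 and 1 lower. Nova1, a neuronal splicing factor, fell by 0.89 ± 0.10 and Elavl4 (HuD), which stabilizes neuronal mRNAs, rose by 0.61 ± 0.09 (limma adjusted p = 0.00105 and 0.00324). Of 21 SR and SR-related factors 1 rose (4.76%), and of 16 nonsense-mediated decay factors 3 rose (18.8%) and 2 fell (12.5%). Of 13 genes of the RNA interference machinery 1 rose and 1 fell (7.69% each). Of 14 snoRNA host genes 1 rose (7.14%). In the muscleblind and CELF list (7 tested) Celf3 rose and Mbnl2 fell.

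A first N2a experiment of the series, with other libraries and no plasmid in its labels, had 3 siFmr1 and 2 siNT samples. Fmr1 was at 15.8, 14.8 and 2.10 CPM (counts scaled to library depth) in its siFmr1 libraries and at 81.2 and 20.04 in its siNT libraries, so the library labelled siNT 2 lay nearer to the siFmr1 libraries. No gene of 12187 was called there by edgeR's quasi-likelihood test (0%), 47 had an unadjusted p under 0.05, and DESeq2 also called 0, with 51. Without siNT 2 the edgeR count of unadjusted p under 0.05 was 75, again with 0 calls. Without siNT 1 it was 806, also with 0 calls. Of genes called higher in the co-transfection, 57.6% of 1687 had a positive fold change in the first experiment, and of those called lower 56% of 1543 had a negative one, beside 47.6% with the same sign among 8869 genes not called. Among genes called in every fit without 1 library the same-sign shares were 67.2% (624 higher) and 65.6% (514 lower). Without siNT 2, an alternative added after its Fmr1 level was seen that leaves 1 control library, the shares were 77% of those called higher, 76.98% of those called lower and 61.8% of 8867 not called, and 79.8% and 80.4% among those called in every fit. For Fmr1 the log2 fold change was -2.25 in the first experiment and -2.37 here, and for Dbh 1.82 and 2.07. Rpl26, a ribosomal protein gene, had -0.73 there and 1.19 here.

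Splicing was read from junction counts in tables of 2 sets of 3 replicates each. The tables do not name their sets. Across shared skipped exons, the reads of the second set were identical (100% of 43530 exons) to the second set of the table for siMbnl1 with pcDNA and (100% of 44772) to that of the table for siMbnl1 with cytoplasmic MBNL1. The first set was identical (100% of 44006) to the second set of the table for siFmr1 with nuclear MBNL1. Differences are given as first minus second set, which reads as siFmr1 minus siNT only if the set shared by both siMbnl1 tables is siNT. Junction reads on skipped exons totalled 35906127 to 47082490 per replicate.

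Of 47662 skipped-exon events that averaged 20 or more reads a replicate in each set, 183 (0.384%) were called at an adjusted p under 0.05 and an inclusion difference of at least 0.1. Inclusion was higher in the first set for 135 (0.283%) and lower for 48 (0.101%). Exons of 27 bases or less, often called microexons and frequent in neuronal transcripts, gave 10 calls among 333 exons (3%), all with higher inclusion in the first set. Exons of 28 to 300 bases whose length is a multiple of 3, and so keep the reading frame, gave 87 calls of 13558 (0.642%), and those of other lengths 67 of 21886 (0.306%). Most of these exons were hardly alternative in these cells. Among exons both included and skipped at a level of at least 0.1 in either set, the 3 shares lay closer together. They were 10 of 126 (7.94%), 87 of 1435 (6.06%) and 67 of 1669 (4.01%), in the same order. The authors' deposited table called 799 of the same events at its FDR under 0.05 with the same difference, of which 182 were among the 183.

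The sequences show 5 of the 8 skipped exons of largest difference, read from GRCm38 along GENCODE M21 transcripts. The exon is coding in the transcript used for Hnrnph3, St7, Dclk2 and Crtc2 and partly coding for Rps24. Capitals mark the skipped exon, and lower case marks 20 bases of the neighbouring exons of that transcript. For Rps24 and Crtc2 the neighbours in the transcript used are not both those of the event.
Rps24, chr14:24494052-24494069, plus strand: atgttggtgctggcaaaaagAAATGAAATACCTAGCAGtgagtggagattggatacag
Hnrnph3, chr10:63018760-63018898, minus strand: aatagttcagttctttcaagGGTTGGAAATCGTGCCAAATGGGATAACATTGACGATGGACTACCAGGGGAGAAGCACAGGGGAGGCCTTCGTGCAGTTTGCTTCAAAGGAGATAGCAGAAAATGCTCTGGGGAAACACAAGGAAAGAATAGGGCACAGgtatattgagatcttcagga
St7, chr6:17850357-17850425, plus strand: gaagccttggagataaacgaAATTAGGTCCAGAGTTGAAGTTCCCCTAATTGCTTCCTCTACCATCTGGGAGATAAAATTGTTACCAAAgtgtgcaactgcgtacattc
Dclk2, chr3:86830824-86830871, minus strand: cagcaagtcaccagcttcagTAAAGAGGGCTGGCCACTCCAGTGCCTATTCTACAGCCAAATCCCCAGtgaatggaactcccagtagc
Crtc2, chr3:90259154-90259222, plus strand: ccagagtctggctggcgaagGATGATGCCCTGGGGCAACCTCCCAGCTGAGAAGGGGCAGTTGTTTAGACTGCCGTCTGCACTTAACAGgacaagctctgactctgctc
The Rps24 exon is 18 bases long, Dclk2 48, St7 69 and Crtc2 69, all multiples of 3, whereas the Hnrnph3 exon of 139 bases is not.

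The Rps24 exon, near the 3′ end of a ribosomal protein mRNA, had the largest difference. Its inclusion was 0.734, 0.741 and 0.752 in the first set and 0.188, 0.247 and 0.248 in the second, a difference of 0.514 over 920 to 1360 and 1138 to 2527 junction reads per replicate (quasi-binomial adjusted p = 3.06e-46). Hnrnph3, an hnRNP of the H family, included its exon at 0.675, 0.7 and 0.68 and 0.19, 0.329 and 0.286, a difference of 0.417 (quasi-binomial adjusted p = 2.23e-20). Both exons were included in most transcripts of the first set and in a minority of the second. Dclk2, a microtubule-associated kinase, had 0.641, 0.431 and 0.654 and 0.247, 0.266 and 0.165 (adjusted p = 9.89e-06 by the quasi-binomial test). St7, named as a candidate tumour suppressor, had 0.749, 0.751 and 0.743 and 0.264, 0.556 and 0.34 (quasi-binomial adjusted p = 1.34e-06). Serp2, an endoplasmic reticulum protein, went the other way, with 0.546, 0.515 and 0.487 and 0.913, 0.871 and 0.754 (quasi-binomial adjusted p = 2.51e-05). These 5 exons were called in each of the 6 fits without 1 replicate. Bin1, a membrane-bending adaptor, Klc1, a kinesin light chain, and Crtc2, a CREB coactivator, differed by 0.356, -0.349 and 0.336 (quasi-binomial adjusted p = 0.0229, 0.0109 and 0.00646) and were called in 2, 2 and 3 of those fits.

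**Figure D5:**
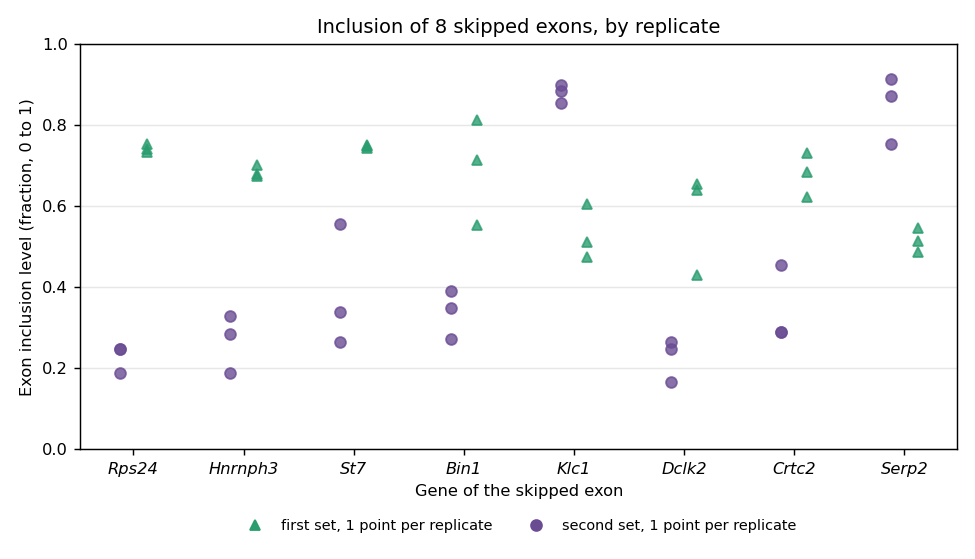
Inclusion level of 8 skipped exons (y axis, fraction from 0 to 1) in each replicate; triangles are the first set and circles the second set of the deposited tables. The sets do not overlap for any of the 8, as the rule for naming them required, and 6 exons are included more in the first set.

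In the FMRP list 1 gene of 17 with a tested exon (Fxr1) and 1 of 7 in the muscleblind and CELF list (Mbnl1) had a called exon; these and Pkm were chosen after their values were seen. An exon of Fxr1 (chr3:34068161-34068252) was included at 0.735, 0.736 and 0.729 in the first and 0.624, 0.617 and 0.577 in the second set (quasi-binomial adjusted p = 3.29e-10). The 54-base exon of Mbnl1 (chr3:60614683-60614736) was at 0.275, 0.39 and 0.384 and 0.643, 0.634 and 0.456 (quasi-binomial adjusted p = 5.37e-05), lower in the first set. In the glycolytic gene Pkm, which carries a pair of alternative exons, the exon at chr9:59675568-59675734 was at 0.275, 0.282 and 0.27 and 0.616, 0.561 and 0.548 (quasi-binomial adjusted p = 1.16e-45). The exon at chr9:59675029-59675195 moved the opposite way, at 0.466, 0.484 and 0.482 and 0.218, 0.219 and 0.26 (quasi-binomial adjusted p = 1.75e-43). Among 20 hnRNP genes with a tested exon 5 had a called one (Hnrnpa1, Hnrnpa2b1, Hnrnpd, Hnrnph1 and Hnrnph3), beside 160 of all 8996 genes. No autophagy and lysosome gene (44 with a tested exon) and no cholesterol gene (23) had a called exon. At the share over all genes, lists of these sizes would often hold none. Of 159 genes with a called exon and an expression value, 33 (20.8%) were also called in expression, beside 25.1% of 8978 genes with a tested exon.

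Other event types gave fewer or less stable calls. Among 1169 alternative 3′ splice sites 7 were called (0.599%), 2 higher (0.171%) and 5 lower (0.428%) in the first set. Among 833 alternative 5′ splice sites 16 were called (1.92%), 10 higher (1.2%) and 6 lower (0.72%). Among 252 retained introns 9 were called (3.57%), 2 higher (0.794%) and 7 lower (2.78%). Among 10140 mutually exclusive exon pairs 218 were called (2.15%), 156 higher (1.54%) and 62 lower (0.611%). Snx27, an endosomal sorting protein, had an alternative 3′ site at 0.379, 0.467 and 0.462 and 0.197, 0.15 and 0.245 (quasi-binomial adjusted p = 0.00187). Retention of an intron in Aph1a, a subunit of gamma-secretase, was 0.5, 0.483 and 0.521 and 0.771, 0.802 and 0.747 (quasi-binomial adjusted p = 8.35e-06), and in Faap20, a DNA repair gene, 0.291, 0.297 and 0.359 and 0.567, 0.738 and 0.609 (quasi-binomial adjusted p = 0.00195). Those 3 events were called in every fit without 1 replicate. Plekha6, Yes1 and Lins, also among the events of largest difference in their tables, were called in 2, 2 and 1 of the 6 fits. Counts for mutually exclusive exons ranged from 1 to 574 when 1 replicate was left out, and their dispersion rose with depth, from a median of 2.52 at 87.6 reads to 8.71 at 2428 reads.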

How the data were processed

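The comparison used 6 libraries of N2a cells, grouped by their labels, from the authors' deposited table of normalized counts (a depth-scaled signal, estimated per gene). The submitters' processing notes name CASAVA, FastQC 0.11.8, Trimmomatic 0.39, Bowtie2 2.3.5, STAR 2.6.1, RSEM 1.3.1 and DESeq2 1.16.1 on GRCm38, without saying which step made which file. From 23064 rows (27 rows whose symbols had become dates were left out), genes with a mean of at least 1 were tested with limma 3.58.1 (trended, Benjamini-Hochberg adjusted) on log2(value + 1). Means of groups are over 3 libraries.

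Splicing used junction counts as deposited by the authors' rMATS tables, with inclusion fractions. The deposited FDR (an adjusted p-value) and the deposited difference score (first minus second set, from the authors' mean inclusion levels, per the file headers) served only as an alternative. Each event with a mean of at least 20 reads per replicate was tested by a quasi-binomial model with limma's moderated dispersion, whose prior was restricted to events with at least 5 reads of the rarer form after first results were seen. A call needed an adjusted p under 0.05 and a difference of at least 0.1. Counts of the first N2a experiment, deposited per gene, were tested with edgeR 4.0.16 (quasi-likelihood) and DESeq2 1.42.0.

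Genes were named as Fmr1, Fxr1, Fxr2, Mbnl1, Mbnl2 and Celf1, the 12 largest changes each way as the report defines them, and up to 4 called members of each of 42 lists with a mean of at least 50 in the higher group. Events were named as the 8 skipped exons and the 2 events of each other type of largest difference, with at least 50 reads and no overlap between sets. Tfeb, Wipi1 and the genes named without fold changes fall outside this rule and were chosen after their values were seen. Some genes, events and 1 list under these rules are not reported here. The members and lists were chosen with earlier results of these data known. Both corrections for GC content and length and the depth-trended dispersion prior were added after the data were seen. GENCODE M21 gave positions, length and GC content, and RefSeq gave the promoter.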

Additional observations from a re-analysis of the deposited data

How the results depend on the processing

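The count of genes called (3654) was 6025 in a fit of all 5 co-transfection groups, 8692 with limma array weights and 1013 with a log2 fold change of at least 1, and between 1407 and 5423 when 1 library was left out, lowest without siFmr1 1. It stayed within 1.5 times under other pseudocounts, filters, median-ratio scaling and both corrections for GC content and length. The share of calls that were higher was 53.9%, against 41.5% with the least-squares correction. Skipped exons called (183) were 400 with the dispersion prior from all events, 61 at a difference of at least 0.2 and 799 by the deposited FDR, and 124 to 189 without 1 replicate. Other events called (250) were 55 at a difference of at least 0.2, 1587 by the deposited FDR, and 16 to 603 without 1 replicate, lowest without replicate 3 of the first set and highest without replicate 1 of the second. The cause of these moves was not tested. Of 2554 values of named genes under alternatives 2366 kept direction and call, 183 lost the call and 4 gained it. The log2 fold change of Agpat2 turned to -0.0056449 under the least-squares correction. Of 1376 list counts 383 moved by over 1.5 times.

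Replicate numbers did not pair the samples: deviations of same-numbered libraries correlated at -0.129, -0.0447 and -0.193. With the replicate number as a block 3366 genes were called, 57.5% of them higher, and 194 skipped exons. Other events under the replicate block were 90. In the first N2a experiment a replicate block over replicates 1 and 2 called 0 genes, with 293 at an unadjusted p under 0.05.

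The depth of the gene table is known only as scaled totals, and p-values cover the spread between libraries. A lower value cannot separate fewer cells from less RNA per cell, and the sets of the splicing tables are not named.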
